A study of Rattus norvegicus with 18 samples.

Results

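The genes described here encode RNA polymerase II and the proteins that start and drive its transcription. They were chosen by symbol: the polymerase subunits (Polr2a to Polr2m), the general transcription factors (Gtf2a, Gtf2b, Gtf2e, Gtf2f and Gtf2h), the TBP-associated factors (Taf), the Mediator subunits (Med), the Supt genes, and Tbp, Cdk7, Cdk9, Ccnt2, Ccnh, Mnat1 and Tcea1. Of 14217 genes with a probe set of a single symbol, 84 met the rule, on 117 probe sets, and 28 of these had several. Each gene was represented by its probe set with the highest mean over all arrays. Of the 84, 82 reached log2 4 on at least 3 arrays and were tested among 9015 genes. All 82 were at or above log2 4 on all 18 arrays. The other 2, Taf7l and Taf11l1, both relatives of TFIID subunits, stayed near the floor of the scale, averaging log2 2.47 and 2.28 over the 18 arrays. For Ccnt1, the other T-type cyclin, the annotation gave no single-symbol probe set, and it was not analysed here.

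The cells were NRK-52E, an established kidney epithelial line from an Osborne-Mendel rat. Confluent cells received aristolochic acid (AA), a nitrophenanthrene plant toxin, at 1.65 µM in 0.1% DMSO, and the controls received 0.1% DMSO alone. RNA was taken after 6, 24 or 72 h, which gave 6 groups of 3 arrays, named by agent and time (AA 6 h and so on). The labels name the dose as the one that inhibits by 10 percent at 72 h, and describe the 3 samples in each group as biological replicates. Nothing says that they came from separate plates or days, and a p-value here reflects no more than the spread among these samples, which may be technical. All groups are 1 cell line, and no animal is involved. In bulk RNA, fewer cells expressing a gene and less RNA per cell cannot be told apart. Below, a gene rose (or fell) if AA was above (or below) DMSO of the same time with an adjusted p under 0.05. Levels and differences are on the log2 scale. The ± is a standard error beside a difference and an SD over 3 arrays beside a level.

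RNA polymerase II reads protein-coding genes. TFIID binds the promoter through TBP and the TAFs, TFIIA and TFIIB steady that contact, TFIIF brings the polymerase, TFIIE and TFIIH open the DNA, and the Cdk7 kinase of TFIIH phosphorylates the repeated tail of Polr2a. Mediator carries signals from DNA-bound regulators to the polymerase, and P-TEFb, made of Cdk9 and a T-type cyclin, releases it from its pause near the promoter. Activated AA forms bulky adducts on DNA, and such lesions in a transcribed strand can stall the polymerase and call in transcription-coupled repair, in which TFIIH also takes part; the arrays measured RNA levels only and not polymerase on DNA.

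Array medians lay between log2 4.03 and 4.20. The array of AA 6 h replicate 3 differed most from its own group, by a mean absolute log2 difference of 0.229 from the mean of the other 2 arrays, while the other 17 arrays lay between 0.103 and 0.203. The difference between 3′ and 5′ beta-actin probe sets, a measure of RNA integrity, was 1.85 to 2.16 in AA 72 h against 1.29 to 1.45 in DMSO 72 h, and 0.978 to 1.27 in the 4 earlier groups. For Gapdh it was -0.12 to -0.04 in AA 72 h and -0.28 to -0.13 in DMSO 72 h. For hexokinase the groups overlapped, with 1.10 to 1.67 in AA 72 h and 0.92 to 1.29 in DMSO 72 h. The line's labelled tissue was weakly marked: of 11 proximal tubule markers, 2 had a mean of log2 4 or more (Aqp1 and Ggt1), and Lrp2, Cubn and Slc34a1 were at log2 2.31, 1.95 and 2.27. Of 9 simple epithelium markers 2 did (Krt8 and Tjp1), of 7 fibroblast markers 3 (Col1a1, Col1a2 and Col3a1), of 4 endothelial markers 1 (Tek), and of 5 immune markers 0. Some of these markers moved at 72 h: Aqp1 had group means of log2 6.11 in AA and 8.43 in DMSO (adjusted p = 1.25e-06), Tek 4.19 and 6.21 (adjusted p = 3.16e-07), Cd68, an immune marker, 5.23 and 3.33 (adjusted p = 0.000215), Krt8 13.25 and 12.71 (adjusted p = 1.18e-05) and Col3a1 14.32 and 14.64 (adjusted p = 0.0109). At 6 h Ggt1 had group means of log2 7.13 in AA and 5.86 in DMSO (adjusted p = 0.00393), and Krt8 14.13 and 13.63 (adjusted p = 0.000479). The other tested markers did not pass at 6 h. The other 4 immune markers and the other 3 endothelial markers were below log2 4 in all 6 groups. The summed level of the immune list was log2 5.83 to 6.08 in AA 72 h and 5.07 to 5.27 in DMSO 72 h, of the endothelial list 4.81 to 5.10 and 6.35 to 6.59, of the proximal tubule list 6.89 to 6.96 and 8.61 to 8.69, of the simple epithelium list 14.46 to 14.56 and 14.32 to 14.42, and of the fibroblast list 14.28 to 14.52 and 14.63 to 14.76. The proximal tubule sum was 7.22 to 8.05 in AA 6 h and 6.62 to 6.83 in DMSO 6 h. That of simple epithelium was 14.77 to 14.94 and 14.42 to 14.59, and the sums of the other lists overlapped at 6 h.

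The promoters of 5 members are shown because these genes moved in opposite directions after AA. Polr2a and Med12 rose at 72 h, and Supt3h, Taf3 and Taf1b fell. Each sequence holds 250 bases before and 50 bases after the start of the gene, from RefSeq on assembly GRCr8; the arrays' own genome build is not given in the sources used here. Capitals mark matches on either strand. The TATA box was searched as TATAAA. For ETS factors the letters CCGGAAG were searched, called the ETS core here. Near matches, such as GCGGAAG in Supt3h, were neither counted nor marked. The core that YY1 binds was searched as AAGATGG. The CCAAT box was searched by those 5 letters.
Polr2a (chr10:54977130-54977429, minus strand): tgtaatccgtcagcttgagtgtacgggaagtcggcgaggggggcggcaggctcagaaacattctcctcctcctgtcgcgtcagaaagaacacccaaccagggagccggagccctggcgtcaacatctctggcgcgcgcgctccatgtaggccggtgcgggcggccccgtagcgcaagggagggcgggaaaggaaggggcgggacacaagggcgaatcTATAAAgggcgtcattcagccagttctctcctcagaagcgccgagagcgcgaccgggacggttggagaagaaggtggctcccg
Med12 (chrX:70444560-70444859, plus strand): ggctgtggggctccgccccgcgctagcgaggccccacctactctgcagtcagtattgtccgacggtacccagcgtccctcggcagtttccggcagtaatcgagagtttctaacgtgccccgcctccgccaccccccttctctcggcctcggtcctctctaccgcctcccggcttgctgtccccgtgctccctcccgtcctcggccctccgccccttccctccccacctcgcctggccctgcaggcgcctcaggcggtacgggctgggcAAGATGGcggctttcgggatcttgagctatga
Supt3h (chr9:23704114-23704413, minus strand): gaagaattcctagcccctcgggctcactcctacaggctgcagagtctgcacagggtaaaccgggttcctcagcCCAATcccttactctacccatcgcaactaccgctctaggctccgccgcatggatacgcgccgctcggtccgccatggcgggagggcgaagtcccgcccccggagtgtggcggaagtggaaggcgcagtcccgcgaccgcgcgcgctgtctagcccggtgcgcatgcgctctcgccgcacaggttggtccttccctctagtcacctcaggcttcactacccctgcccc
Taf3 (chr17:73364912-73365211, plus strand): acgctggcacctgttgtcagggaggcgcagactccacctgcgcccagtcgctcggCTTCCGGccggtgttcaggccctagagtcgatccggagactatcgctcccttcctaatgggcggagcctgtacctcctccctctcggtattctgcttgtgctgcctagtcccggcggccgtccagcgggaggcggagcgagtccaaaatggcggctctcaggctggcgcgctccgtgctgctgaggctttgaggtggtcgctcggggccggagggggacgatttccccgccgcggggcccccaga
Taf1b (chr6:46845802-46846101, plus strand): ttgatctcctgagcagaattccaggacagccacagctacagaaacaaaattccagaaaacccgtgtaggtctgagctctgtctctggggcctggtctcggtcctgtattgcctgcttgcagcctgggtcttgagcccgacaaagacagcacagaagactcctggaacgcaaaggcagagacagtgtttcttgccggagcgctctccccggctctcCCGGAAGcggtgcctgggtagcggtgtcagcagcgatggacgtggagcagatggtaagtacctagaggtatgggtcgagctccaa

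A window was found for 71 of the 84 members (72 windows, since Taf9 had 2), and 13 members had none in the table. Among the 72 windows 20 held the ETS core (27.8%), against 19.7% of 8499 windows of all tested genes and 8.75% of 33465 windows in the table. The TATA box was in 6.94% of the members' windows, 6.26% of those of tested genes and 14.2% of all windows; in Polr2a it began 33 bases before the start. The YY1 core was in 16.7%, 8.66% and 7.01%, and CCAAT in 41.7%, 38.1% and 37.5%. A CpG ratio, observed over expected, of at least 0.6 was found in 90.3% of the members' windows, 77.2% of those of tested genes and 34.4% of all. These are letter matches and no measurement of binding.

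At 6 h 12 of the transcription genes fell and 4 rose, with TFIID subunits among those that fell; with arrays centred on their medians 7 fell and 6 rose. Of 82 members, 16 passed the test (19.5%), against 24.5% of all tested genes. 4 rose (4.88%, against 12.1% of all tested genes) and 12 fell (14.6%, against 12.4%). The share that passed was below that of all genes and the share that fell close to it, and the members' median difference was -0.09 against 0.01 for all tested genes. The 3 AA and 3 DMSO arrays did not overlap for 26 members, against 36.4% of all tested genes. No member passed a difference of log2 1 at 6 h. The shifts of Ggt1 and Krt8 at 6 h, given above, stand beside these results, and their part in them was not tested.

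Polr2a, the largest subunit and the one that carries the phosphorylated tail, rose at 6 h. Its 3 AA arrays read log2 10.50, 10.56 and 10.40, and its 3 DMSO arrays 10.22, 10.00 and 10.22. The groups did not overlap, and the difference was 0.34 ± 0.08 (adjusted p = 0.00521). Among the other 11 core subunits Polr2d, which with Polr2g forms the stalk, fell by 0.34 (adjusted p = 0.0176) and 10 did not pass, among them Polr2b, the second largest subunit (-0.10, adjusted p = 0.275). Of TFIIA, TFIIB, TFIIE and TFIIF, 1 of 7 fell, Gtf2a1 (-0.22, adjusted p = 0.0374). Of 7 TFIIH genes 1 rose, Mnat1, the assembly factor of the Cdk7 kinase (0.29, adjusted p = 0.00819), while Cdk7 itself and cyclin H (Ccnh) gave -0.08 and -0.16 without passing.

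Of the 13 tested TFIID genes 6 fell and 0 rose at 6 h; without AA 6 h replicate 3, 2 fell (Taf12 and Taf4), and without DMSO 6 h replicate 2 or 3, 3 fell. Taf12, a histone-fold subunit that pairs with Taf4, read 7.33, 7.62 and 7.38 in AA and 8.03, 8.03 and 7.94 in DMSO. The groups were apart, by -0.55 ± 0.12 (adjusted p = 0.00362). Taf4 itself fell by 0.47 (adjusted p = 0.00325). Taf4b, its close relative, read 7.79, 8.25 and 6.94 in AA against 8.33, 8.48 and 8.50 in DMSO, a difference of -0.78 ± 0.22 (adjusted p = 0.0176). Taf3, which reads the methylated histone tail of active promoters, read 8.19, 8.16 and 7.41 in AA and 8.53, 8.49 and 8.43 in DMSO. In both Taf4b and Taf3 replicate 3 of AA lay well below the other 2 AA arrays. The Taf3 difference was -0.56 ± 0.16 (adjusted p = 0.0152), and the other Taf3 probe sets gave -0.21 and -0.42. Taf9b and Taf13, both histone-fold TAFs, fell by 0.54 and 0.25 (adjusted p = 0.0339 and 0.0241). A second bright probe set of Taf13 gave -0.09. Tbp, the TATA-binding protein, did not pass, with a difference of 0.03 and a 95% interval of -0.16 to 0.21, nor did Taf1, the largest TAF (0.16, interval -0.16 to 0.48), whose direction depended on the probe set (-0.46 on the other, -0.15 averaged).

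In the SL1 factor, which serves RNA polymerase I and carries TAFs of its own, 2 of 3 fell: Taf1d by 0.44 (adjusted p = 0.00217) and Taf1b by 0.33 (adjusted p = 0.0468). Of 28 Mediator genes 2 rose and 1 fell. Med13, a subunit of the kinase module that sits on Mediator and blocks its contact with the polymerase, read 9.06, 8.90 and 8.70 in AA and 9.59, 9.67 and 9.33 in DMSO, with no overlap. Its difference was -0.64 ± 0.12 (adjusted p = 0.00134), and a second probe set gave -0.62. Med24 and Med1, a tail subunit and the subunit that contacts nuclear receptors, rose by 0.38 and 0.23 (adjusted p = 0.0251 and 0.0495). The rise of Med1 was seen on 1 of its 2 bright probe sets: the other gave -0.08, and with probe sets averaged the difference was 0.10 (adjusted p = 0.518).

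Ccnt2, a cyclin partner of Cdk9 in P-TEFb, had the largest difference of all members at 6 h. It read 7.93, 8.05 and 7.95 in AA and 8.59, 8.70 and 9.08 in DMSO. All 3 AA arrays lay below all 3 DMSO arrays, and the difference was -0.81 ± 0.14 (adjusted p = 0.000712, 1.76-fold lower). Its other probe sets gave -0.78, -0.28 and 0.02, the last one at the floor. Cdk9, the kinase, gave -0.06 (adjusted p = 0.503, 95% interval -0.18 to 0.07), and Supt5h and Supt6h, elongation factors that travel with the polymerase, gave 0.13 and 0.11 without passing. Supt16h, a subunit of the histone chaperone FACT, gave 0.14 (adjusted p = 0.331). Tcea1, which restarts a stalled polymerase, could be read on 1 dim probe set just over the filter level (log2 4.26 in AA, 4.32 in DMSO). The 3 probe sets that it shares with Tcea1l1 were not used.

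Of the 16 calls at 6 h, 5 were kept under all 14 alternatives run at that time: Ccnt2, Med13, Taf12, Taf4 and Taf1d. Without AA 6 h replicate 3, 6 members passed (1 higher, 5 lower), and the differences of Taf4b, Taf3, Taf9b, Med24, Polr2d, Taf13 and Mnat1 became -0.42 (adjusted p = 0.132), -0.31 (0.106), -0.36 (0.205), 0.25 (0.17), -0.27 (0.108), -0.18 (0.145) and 0.23 (0.0525). Without DMSO 6 h replicate 2, 9 passed, and Taf4b (adjusted p = 0.0539), Taf9b (0.105), Med24 (0.0645) and Taf13 (0.0793) did not. Without DMSO 6 h replicate 3, Taf4b (0.0542), Taf9b (0.0782), Med24 (0.062), Taf13 (0.0606) and Polr2d (-0.21, 0.11) did not, and without AA 6 h replicate 1 Taf9b did not (0.0734). Med1, Gtf2a1 and Taf1b lost their calls in 10, 10 and 11 alternatives, Med1 without AA 6 h replicate 1 or 3 or DMSO 6 h replicate 1 or 2 (adjusted p 0.0826 to 0.172), Gtf2a1 without any array but AA 6 h replicate 1 (0.0568 to 0.114), and Taf1b without any of the 6 arrays (0.0583 to 0.139). With arrays centred on their medians all tested genes split into 1706 higher and 638 lower against 1091 and 1120 as deposited.

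**Figure D1:**
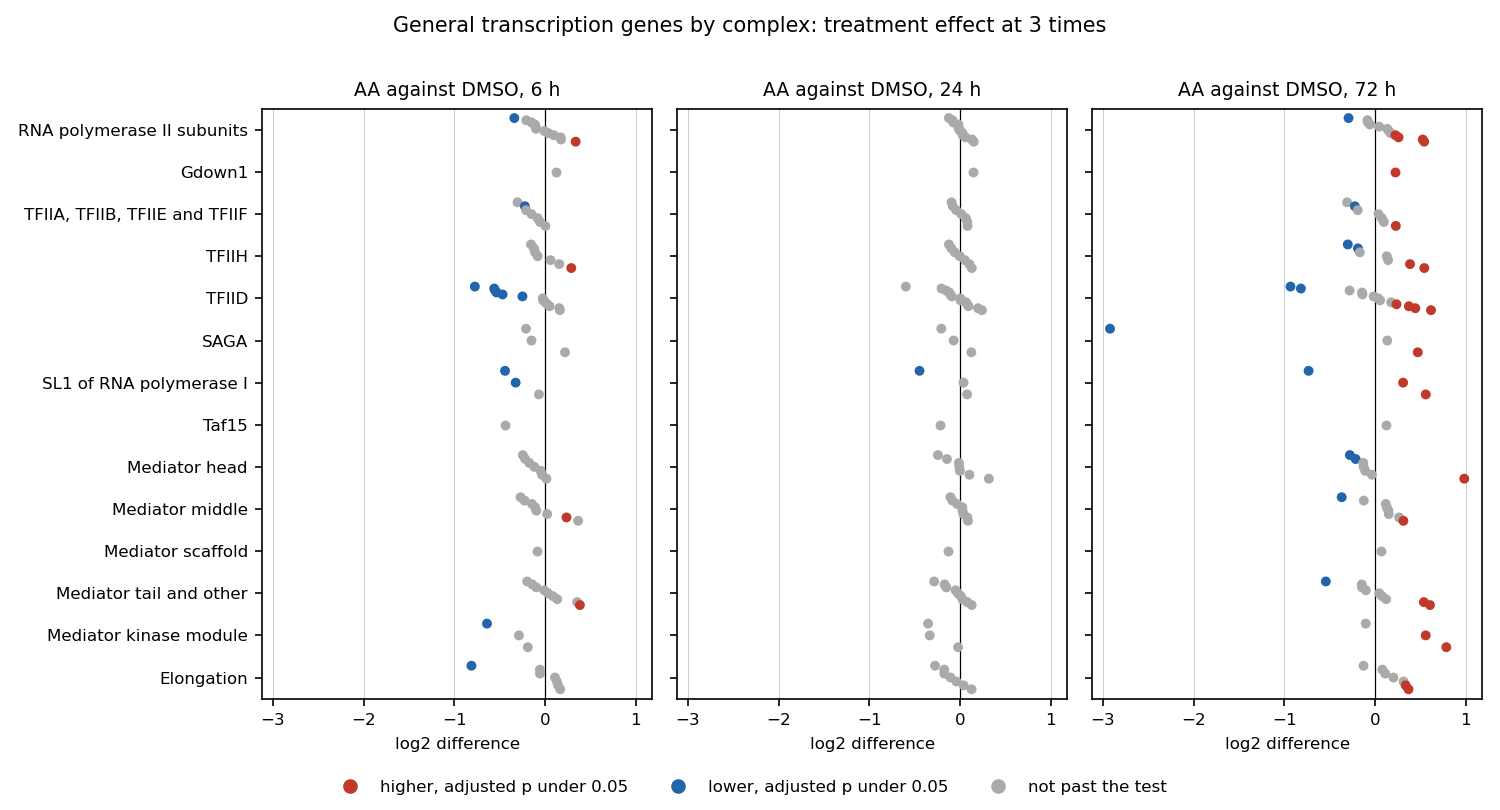
Log2 difference between AA and DMSO (x axis) of each of the 82 tested members, by complex (y axis), at 6, 24 and 72 h; each point is 1 gene, red if higher and blue if lower with an adjusted p under 0.05, grey otherwise. At 6 h 4 genes are red and 12 blue, at 24 h 0 and 1, and at 72 h 23 and 12, with Supt3h at -2.92.

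At 24 h few of these genes differed. Of 82 members 1 passed (1.22%, against 2.09% of all tested genes), and 0 rose (against 1.81%) and 1 fell (against 0.277%), while 5 had an unadjusted p under 0.05 in limma. The median difference was -0.01, as it was for all tested genes. The gene that passed was Taf1b, a subunit of SL1 related to TFIIB, which read 7.93, 8.29 and 8.40 in AA and 8.67, 8.62 and 8.67 in DMSO. Its groups did not overlap, and the difference was -0.45 ± 0.12 (adjusted p = 0.0497). This call was lost in 10 of 14 alternatives, among them without AA 24 h replicate 1 (-0.31, adjusted p = 0.369) or 2 (0.088) and without DMSO 24 h replicate 1 (0.182), 2 (0.0875) or 3 (0.152). Polr2a read 10.80, 10.70 and 10.75 in AA and 10.59, 10.65 and 10.54 in DMSO; the arrays did not overlap, but the difference of 0.15 did not pass (adjusted p = 0.496). The largest difference of all members at 24 h was that of Taf4b, -0.60, which did not pass. Taf4b read 5.86, 5.98 and 6.29 in AA and 6.54, 6.63 and 6.76 in DMSO, without overlap. Taf3 gave -0.20, also without overlap and without passing. Groups that do not overlap were found for 15 of 82 members and for 19.5% of all tested genes.

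At 72 h more of these genes moved, most of them upward, and 1 gene fell far more than any other. Of 82 members 35 passed (42.7%), against 47.2% of all tested genes. 23 rose (28.0%, against 27.4%) and 12 fell (14.6%, against 19.8%), so the share that rose was close to that of all genes and the share that fell was below it. The median difference was 0.09, against 0.05 for all tested genes, and the arrays did not overlap for 44 members, against 59.6% of all tested genes. 1 member, Supt3h, passed a difference of log2 1. The higher 3′ to 5′ difference of beta-actin in AA 72 h, and the shifts of cell type markers, given above, stand beside all results at 72 h; their part in them was not tested.

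Supt3h encodes a histone-fold protein of SAGA, a coactivator that shares TAFs with TFIID. At 72 h it read 5.03, 4.92 and 5.05 in AA and 8.04, 7.80 and 7.92 in DMSO. All AA arrays lay far below all DMSO arrays. The difference was -2.92 ± 0.15 (adjusted p = 7.21e-12, 7.58-fold lower), and a second probe set gave -2.25. At 6 h and 24 h the same gene gave 0.22 and -0.21, with overlapping arrays, so the fall appeared between 24 h and 72 h: the change of the AA effect over that interval was -2.71 ± 0.21 (adjusted p = 1.56e-08). In DMSO alone Supt3h rose from 6.88 ± 0.04 at 6 h to 7.65 ± 0.20 at 24 h. Of the other SAGA genes, Taf6l rose by 0.47 (adjusted p = 0.00935; 0.34 and 0.0695 without DMSO 72 h replicate 3), and Supt20h gave 0.13 without passing (adjusted p = 0.247), with a second probe set at -0.30.

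Of 12 polymerase subunits 4 rose and 1 fell at 72 h. Polr2a read 10.94, 11.14 and 11.13 in AA and 10.53, 10.56 and 10.55 in DMSO. All AA arrays lay above all DMSO arrays, by 0.53 ± 0.08 (adjusted p = 1.6e-05, 1.44-fold higher). Polr2a was the one member that rose at both 6 h and 72 h. Its call at 6 h was lost in the fit on the 6 h arrays alone, where 0 members passed upward. Polr2h, a subunit shared by all 3 nuclear polymerases, read 9.66, 9.88 and 9.80 in AA against 9.24, 9.27 and 9.21 in DMSO (0.54 ± 0.10, adjusted p = 0.000134). Polr2b, which forms the active centre with Polr2a, read 11.54, 11.58 and 11.61 against 11.35, 11.34 and 11.26 (0.26 ± 0.07, adjusted p = 0.00337). Polr2k, a small shared zinc-binding subunit, rose by 0.23 (adjusted p = 0.0433), and Polr2j, which pairs with Polr2c, fell by 0.29 (adjusted p = 0.022). Polr2k lost its call without AA 72 h replicate 2 or 3 or DMSO 72 h replicate 2 or 3 (0.0759 to 0.174), and Polr2j without AA 72 h replicate 1 or DMSO 72 h replicate 1 or 3 (0.0511 to 0.0785). Polr2m, which encodes Gdown1, a polymerase-bound protein that makes it depend on Mediator, gave 0.22 (adjusted p = 0.0193) on its brighter probe set and -0.51 on the other, and without AA 72 h replicate 3 or DMSO 72 h replicate 1 or 3 its adjusted p was 0.0613 to 0.0815.

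TFIIH moved both ways at 72 h, with 2 of 7 genes higher and 2 lower. Cdk7 read 11.95, 12.09 and 12.01 in AA and 11.67, 11.54 and 11.68 in DMSO. There was no overlap, and the difference was 0.39 ± 0.08 (adjusted p = 0.000517). Its partners Ccnh and Mnat1 gave 0.14 and 0.13 (adjusted p = 0.124 and 0.146), with 95% intervals of -0.01 to 0.30 and -0.02 to 0.28. Gtf2h1, the p62 core subunit, read 10.32, 10.44 and 10.28 in AA against 9.96, 9.81 and 9.63 in DMSO (0.54 ± 0.09, adjusted p = 8.36e-05), but its second probe set gave -0.46, and with probe sets averaged the difference was 0.04 (adjusted p = 0.691). Gtf2h3 and Gtf2h5, the p34 and p8 subunits, fell by 0.30 and 0.19 (adjusted p = 0.0361 and 0.0402). Without AA 72 h replicate 1 or 3 or any DMSO 72 h array the adjusted p was 0.0543 to 0.179 for Gtf2h3 and 0.0737 to 0.176 for Gtf2h5. In TFIIA the larger gene Gtf2a1 rose by 0.23 (adjusted p = 0.0179) and Gtf2a2 fell by 0.22 (adjusted p = 0.00628), and the other 5 genes of TFIIB, TFIIE and TFIIF did not pass, among them Gtf2b (0.07, 95% interval -0.07 to 0.22). Without AA 72 h replicate 3 or DMSO 72 h replicate 1 Gtf2a1 had an adjusted p of 0.0799 and 0.0849.

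In TFIID 4 of 13 genes rose and 2 fell at 72 h. Taf6, a histone-fold subunit of the core, read 8.88, 8.99 and 8.99 in AA and 8.29, 8.29 and 8.42 in DMSO (0.62 ± 0.10, adjusted p = 5.06e-05). Its partner Taf9 rose by 0.37 (adjusted p = 0.000163), Taf13 by 0.44 (adjusted p = 0.0001) and Taf2, which binds the initiator element, by 0.24 (adjusted p = 0.0307; 0.0653 to 0.114 without AA 72 h replicate 1 or 3 or DMSO 72 h replicate 2 or 3). These were small shifts with groups that did not overlap. Taf3 read 8.06, 7.62 and 7.91 in AA and 8.73, 8.86 and 8.79 in DMSO, a difference of -0.93 ± 0.16 (adjusted p = 7.23e-05), and its other probe sets gave -0.73 and -0.85. Taf4b read 5.46, 5.43 and 5.19 against 5.97, 6.16 and 6.40 (-0.82 ± 0.22, adjusted p = 0.00542). Both also fell at 6 h. Tbp gave -0.14 (adjusted p = 0.193, 95% interval -0.33 to 0.04) and Taf1 -0.14 (adjusted p = 0.476). In SL1 Taf1b read 7.90, 7.90 and 7.92 in AA and 8.64, 8.50 and 8.78 in DMSO, and fell by 0.73 ± 0.12 (adjusted p = 3.58e-05), while Taf1d rose by 0.31 (adjusted p = 0.00715) and Taf1c by 0.56 (adjusted p = 0.0145; 0.33 and 0.119 without AA 72 h replicate 2, 0.49 and 0.0634 without DMSO 72 h replicate 1). Taf1b thus passed downward at all 3 times, though its calls at 6 h and 24 h were lost in most alternatives. Taf3 and Taf4b also had all AA arrays below all DMSO arrays at all 3 times, but did not pass at 24 h.

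Of 28 Mediator genes 6 rose and 4 fell at 72 h. Med22, a head subunit, read 8.16, 8.70 and 8.33 in AA and 7.40, 7.53 and 7.31 in DMSO (0.98 ± 0.20, adjusted p = 0.000463, 1.98-fold higher). Med12, which activates the kinase of the kinase module, read 6.67, 7.06 and 6.11 in AA and 5.83, 5.70 and 5.94 in DMSO. The AA arrays were spread over almost log2 1 and all lay above the DMSO arrays (0.79 ± 0.19, adjusted p = 0.00246). Med13 of the same module read 9.08, 9.01 and 9.08 against 8.68, 8.41 and 8.40 (0.56 ± 0.12, adjusted p = 0.000684), and its second probe set gave 0.34. Med13l, the paralog of Med13, gave -0.10 (adjusted p = 0.384). Of the tail, Med25 and Med15, both targets of activators, rose by 0.61 and 0.54 (adjusted p = 0.00061 and 0.000284), and Med27 read 8.09, 8.19 and 7.99 against 8.58, 8.59 and 8.73, a fall of 0.54 (adjusted p = 0.00494). A second probe set of Med25 gave 0.27. Med19 of the middle rose by 0.31 (adjusted p = 0.00353). Med31 fell by 0.37 (adjusted p = 0.000956); with its weak second probe set averaged in, the difference was -0.02 (adjusted p = 0.869). The head subunits Med6 and Med11 fell by 0.21 and 0.28 (adjusted p = 0.0351 and 0.0481). Med6 did not pass without AA 72 h replicate 1 or 3 or any DMSO 72 h array (0.0559 to 0.0944), nor Med11 without AA 72 h replicate 1 or 3 or DMSO 72 h replicate 1 or 2 (0.0763 to 0.22).

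Among the 7 elongation genes 2 rose at 72 h and 0 fell. Ccnt2 read 9.18, 9.10 and 9.05 in AA and 8.70, 8.78 and 8.74 in DMSO, a difference of 0.37 ± 0.14 (adjusted p = 0.0313), with the groups apart but smaller than the fall at 6 h in size. Its other probe sets gave 0.40, -0.11 and 0.09, and the call was lost in 8 of 14 alternatives, among them without AA 72 h replicate 1 or 2 or any DMSO 72 h array (adjusted p 0.055 to 0.086). Supt6h, a histone chaperone that moves with the polymerase, read 10.24, 10.50 and 10.20 against 9.92, 9.95 and 10.06 (0.34 ± 0.10, adjusted p = 0.00923; 0.25 and 0.0655 without AA 72 h replicate 2). Supt5h, the DSIF subunit that holds the paused polymerase, just missed the threshold (0.20, 95% interval 0.03 to 0.38, adjusted p = 0.0508). Cdk9 gave 0.11 (95% interval -0.01 to 0.24, adjusted p = 0.126), Supt16h 0.08 (adjusted p = 0.556) and Tcea1, on its dim probe set, 0.31 (adjusted p = 0.137). Of the 35 calls at 72 h, 19 were kept under all 14 alternatives, 10 were lost in 1 to 4 and 6 in more. With arrays centred on their medians 24 rose and 8 fell.

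**Figure D2:**
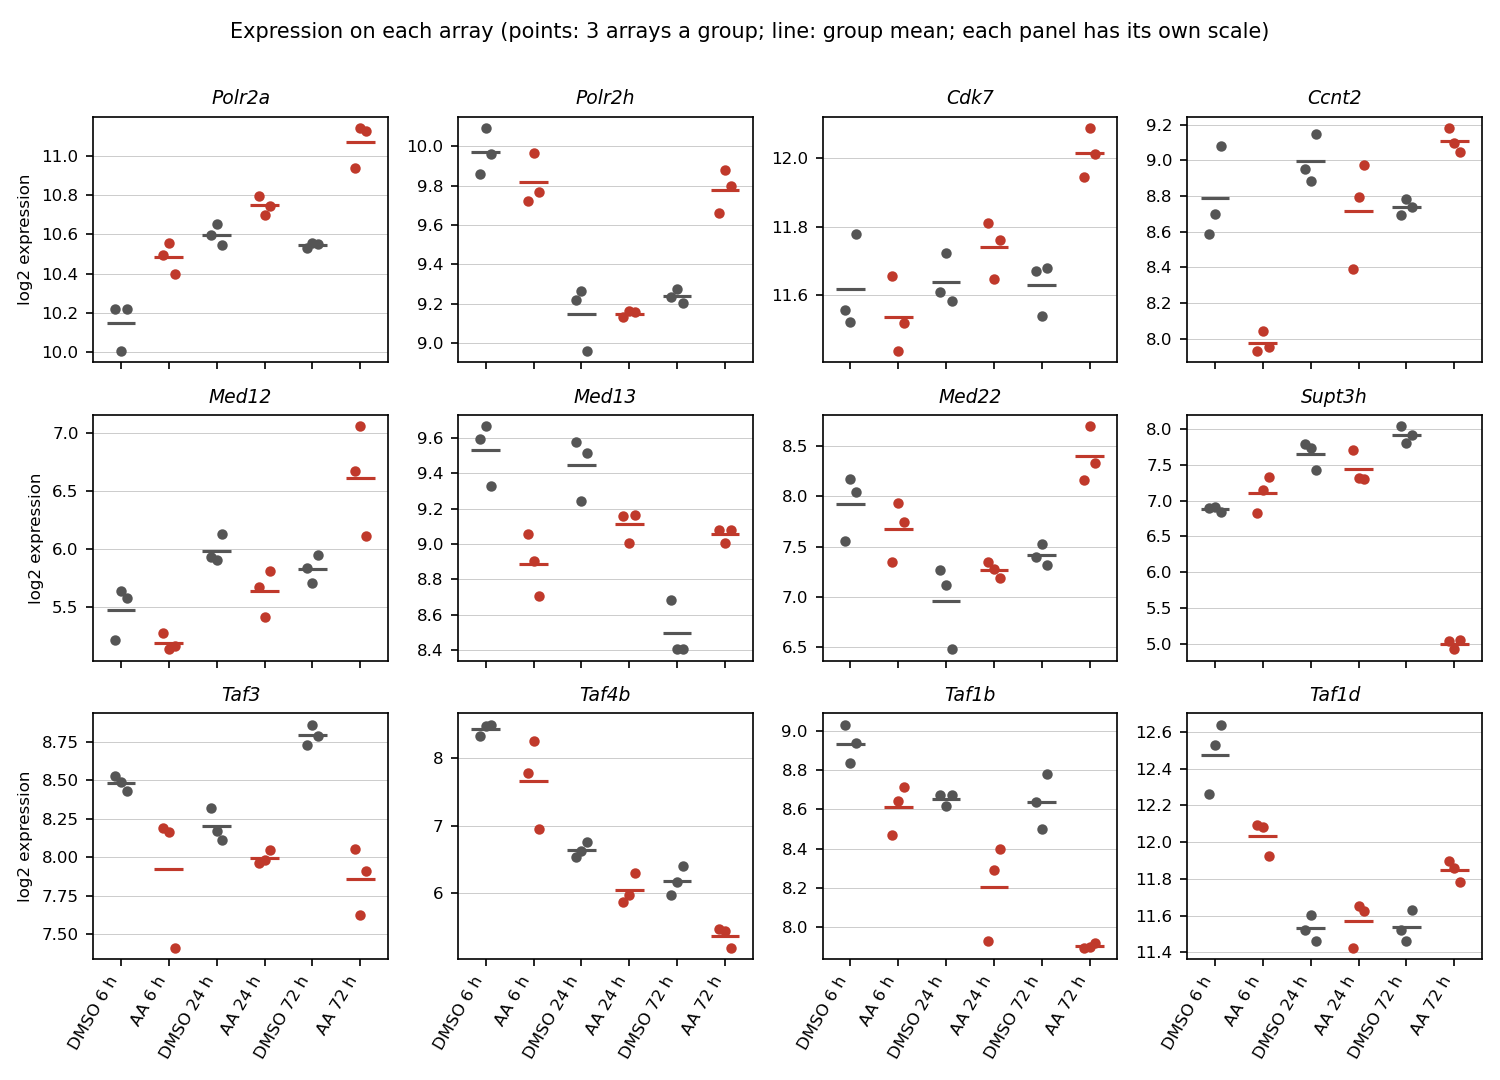
Log2 expression (y axis, own scale in each panel) of 12 members on each of the 18 arrays, by group (x axis); points are arrays, grey for DMSO and red for AA, and lines are group means. Supt3h in AA 72 h sits between 4.92 and 5.05 while its DMSO 72 h arrays sit between 7.80 and 8.04. Taf1b, Taf3 and Taf4b in AA lie below DMSO at all 3 times.

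The treatment comparisons at 6 h and 72 h share no arrays, so the same genes can be set side by side. Of the 12 members that fell at 6 h, 5 rose at 72 h (Ccnt2, Med13, Taf13, Taf1d and Gtf2a1), 3 fell again (Taf3, Taf4b and Taf1b) and 4 did not pass. As given above, Gtf2a1, Taf13, Taf3, Taf4b and Taf1b lost their calls at 6 h in some alternatives. Ccnt2 and Gtf2a1 did so at 72 h. All tested genes that fell at 6 h numbered 1120, and at 72 h 260 of them rose, 213 fell again and 647 did not pass. Of the 4 members that rose at 6 h, 1 rose at 72 h and 3 did not pass. All tested genes that rose at 6 h numbered 1091, and at 72 h 354 of them were again higher, 197 were lower and 540 missed the threshold. Across the 82 members the differences at the 2 times had a Pearson r of -0.06, and across all tested genes 0.07; these are descriptions across genes, which are not independent replicates.

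**Figure D3:**
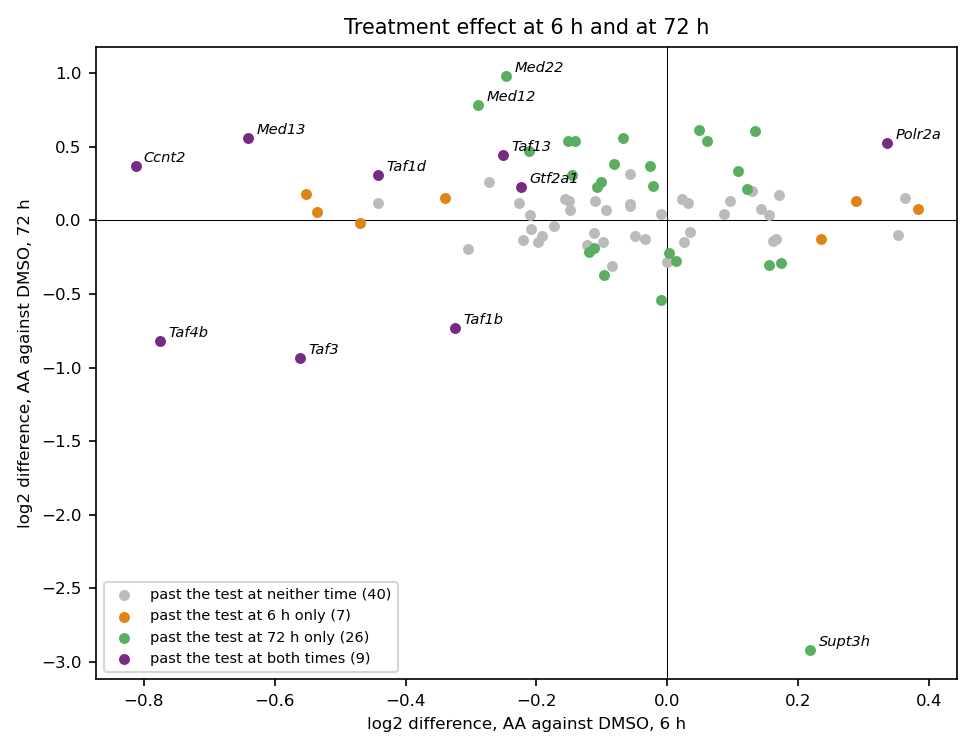
Log2 difference between AA and DMSO at 6 h (x axis) and at 72 h (y axis) for the 82 tested members; colours show at which times a gene passed the test. 9 genes passed at both times: Ccnt2, Med13, Taf13, Taf1d and Gtf2a1 at upper left, Taf3, Taf4b and Taf1b at lower left, and Polr2a at upper right.

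The change of the AA effect between times was tested as such. From 24 h to 72 h it passed for 19 members (23.2%, against 32.4% of all tested genes), 15 upward (18.3%, against 18.7%) and 4 downward (4.88%, against 13.7%). Med12 changed by 1.14 ± 0.27 (adjusted p = 0.00361), Med13 by 0.89 ± 0.17 (adjusted p = 0.000442) and Polr2a by 0.38 ± 0.11 (adjusted p = 0.013). These are changes of the difference between AA and DMSO, not of a level: for Med13 the level dropped in DMSO between 24 h and 72 h. The third gene of the kinase module, Med13l, did not pass, and Cdk19, a Mediator kinase outside the symbol rule, changed by -0.91 ± 0.13 (adjusted p = 3.51e-05). From 6 h to 72 h, a comparison added after the values were seen, 30 passed (36.6%, against 41.2%), 24 upward (29.3%, against 23.1%) and 6 downward (7.32%, against 18%) (20 and 9 with arrays centred on their medians). Med22 changed by 1.23 ± 0.28 (adjusted p = 0.00194), Med13 by 1.20 ± 0.17 (adjusted p = 1.54e-05) and Ccnt2 by 1.18 ± 0.19 (adjusted p = 8.3e-05). Polr2a is not among these 30. From 6 h to 24 h 1 member passed (1.22%, against 2.43%; 1.45% of all tested genes passed upward and 0.976% downward), Taf1d, by 0.48 ± 0.12 (adjusted p = 0.0457), and 11 had an unadjusted p under 0.05. Taf1d lost that call in 15 of 20 alternatives, among them without AA 6 h replicate 2 or 3, DMSO 6 h replicate 2 or 3, AA 24 h replicate 2 or 3, or any DMSO 24 h array (adjusted p 0.0518 to 0.121).

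More members differed between 6 h and 24 h in DMSO than between AA and DMSO at any of the 3 times. In DMSO alone, 55 of 82 members differed between 24 h and 6 h (67.1%), against 58.7% of all tested genes; 13 were higher at 24 h (15.9%, against 28.3%) and 42 lower (51.2%, against 30.5%). The median difference was -0.28, against -0.01 for all tested genes, and the arrays did not overlap for 58 members, against 64.3% of all tested genes. These DMSO arrays are also the controls of the treatment comparisons.

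Among the polymerase subunits 8 of 12 were lower at 24 h than at 6 h and 3 higher, among them Polr2h (-0.82 ± 0.10, adjusted p = 6.82e-07) and Polr2b (-0.48, adjusted p = 4.69e-06). Polr2a went the other way, from 10.15 ± 0.12 to 10.60 ± 0.05 (0.45 ± 0.08, adjusted p = 5.74e-05), so the largest subunit and most of the smaller ones moved in opposite directions. Of TFIIA, TFIIB, TFIIE and TFIIF, 6 of 7 were lower and 0 higher, with Gtf2f2, the smaller TFIIF subunit, at -1.06 ± 0.13 (adjusted p = 1.07e-06) and Gtf2b at -0.53 ± 0.07 (adjusted p = 3.3e-06). In TFIID 8 of 13 were lower and 2 higher. Taf4b read 8.33, 8.48 and 8.50 at 6 h and 6.54, 6.63 and 6.76 at 24 h, the largest difference of all members (-1.79 ± 0.22, adjusted p = 1.39e-06). Taf5, a scaffold of TFIID, was lower by 1.27 (adjusted p = 2.96e-06), and Taf10 was higher by 0.48 (adjusted p = 0.000494). Tbp gave -0.26 (adjusted p = 0.0156; 0.0506 to 0.0672 without DMSO 6 h replicate 1 or DMSO 24 h replicate 1 or 2).

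All 3 SL1 genes were lower at 24 h: Taf1d by 0.95 (adjusted p = 3.24e-08), Taf1c by 0.46 (adjusted p = 0.0322) and Taf1b by 0.28 (adjusted p = 0.0439). Taf1c did not pass without DMSO 6 h replicate 2 or 3 or DMSO 24 h replicate 1 or 2 (adjusted p 0.0683 to 0.117), nor Taf1b without DMSO 6 h replicate 1 or 3 or any DMSO 24 h array (0.0688 to 0.14). In Mediator 12 of 28 were lower and 5 higher, from Med22 (-0.97) and Med19 (-0.96) to Med25 (0.82 ± 0.13, adjusted p = 1.86e-05). A second probe set of Med25, about as bright, gave 0.34. Med12 was higher by 0.51 (adjusted p = 0.0296; 0.38 and 0.136 without DMSO 6 h replicate 1, 0.44 and 0.0963 without DMSO 24 h replicate 3). TFIIH had 1 gene higher, Mnat1 (0.49, adjusted p = 9.12e-06), and 2 lower of 7. Of the elongation genes 5 of 7 did not pass, 1 was higher (Supt4h1, the other DSIF subunit, 0.31) and 1 lower (Supt16h, -0.40); differences between complexes were not tested.

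From 24 h to 72 h in DMSO 17 members passed (20.7%, against 34.3% of all tested genes), 9 higher (11.0%, against 17.2%) and 8 lower (9.76%, against 17.1%), with a median difference of 0.00 and arrays that did not overlap for 38 members, against 52.6% of all tested genes. Med13 was lower by 0.95 ± 0.12 (adjusted p = 6.09e-06), from 9.58, 9.25 and 9.51 to 8.68, 8.41 and 8.40, while in AA it read 9.16, 9.01 and 9.16 at 24 h and 9.08, 9.01 and 9.08 at 72 h. Between 24 h and 72 h the level of Med13 thus dropped in DMSO and hardly moved in AA. Taf5 was higher by 0.97 (adjusted p = 0.000191) and Taf3 by 0.59 (adjusted p = 0.0065).

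**Figure D4:**
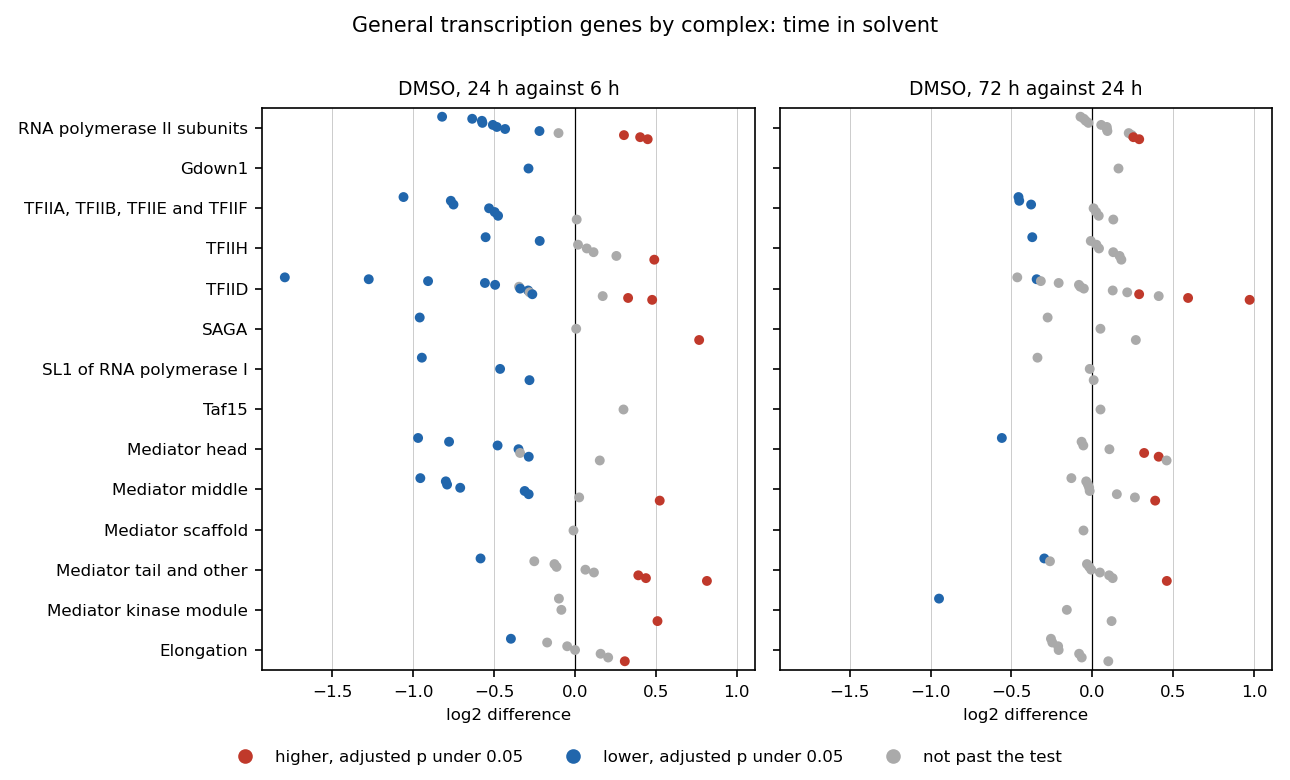
Log2 difference within DMSO (x axis), 24 h against 6 h and 72 h against 24 h, of each of the 82 tested members by complex (y axis); points are genes, red if higher at the later time and blue if lower with an adjusted p under 0.05, grey otherwise. Between 6 h and 24 h 42 genes are blue and 13 red, and between 24 h and 72 h 8 and 9.

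The treatment effect was also set beside gene length. The median genomic span of the tested members, from RefSeq GRCr8, was 15.8 kb, against 24.3 kb for the 8984 tested genes with a span. 7 members span over 100 kb: Supt3h (328 kb), Med13l (197), Med27 (174), Mnat1 (156), Taf3 (153), Taf4b (134) and Gtf2f2 (121). At 72 h 4 of these 7 fell (Supt3h, Taf3, Taf4b and Med27) and 0 rose, with a median of -0.54. Of all 1166 tested genes over 100 kb, 57.2% fell and 8.32% rose, with a median of -0.40, so the long members fell about as often as long genes in general. Of the 75 shorter members 23 rose (30.7%, against 30.3% of the 7818 shorter tested genes) and 8 fell (10.7%, against 14.2%). Across the 82 members Spearman's rho between span and the difference at 72 h was -0.08 (-0.05 without Supt3h), and across all tested genes -0.26. Pearson's r with the log10 of span was -0.29 (-0.15 without Supt3h) and -0.33. At 24 h rho was -0.27 and -0.21, and at 6 h -0.10 and -0.15. These are descriptions across genes on 18 shared arrays, and span also goes with base composition and expression level.

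**Figure D5:**
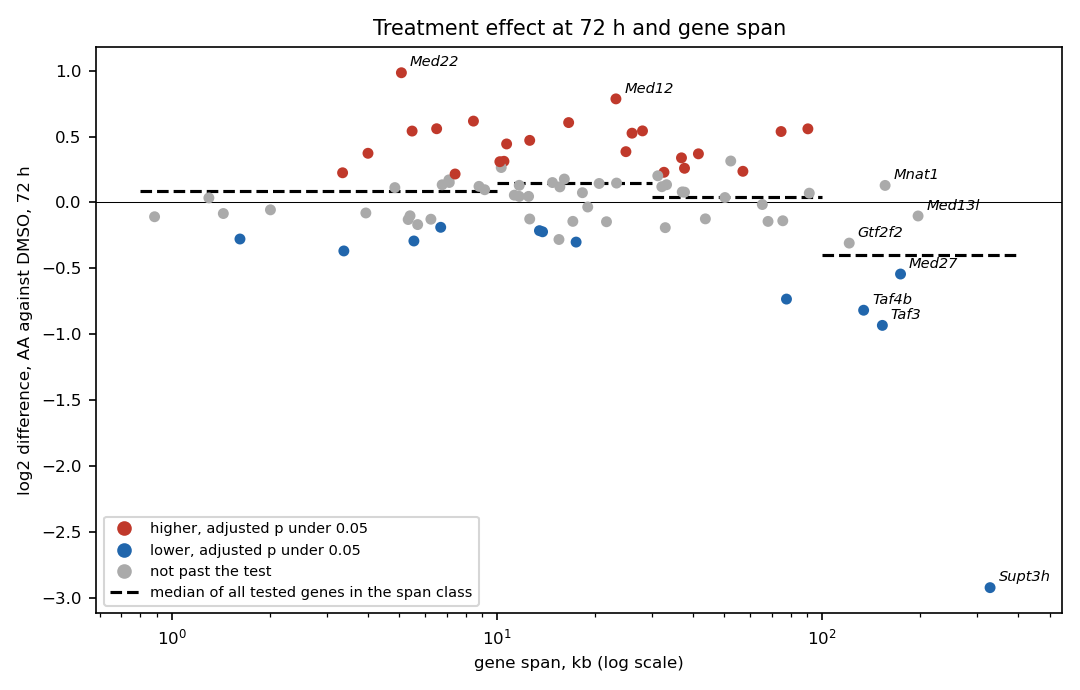
Log2 difference between AA and DMSO at 72 h (y axis) against genomic span in kb (x axis, log scale) for the 82 tested members; red and blue mark higher and lower genes with an adjusted p under 0.05, and dashed lines are medians of all tested genes in 4 span classes. Over 100 kb no member is red and 4 are blue, and the dashed line there is at -0.40.

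Genes of neighbouring steps that the symbol rule left out were counted in 6 lists. The counts can be set against all tested genes. Of these 12.1% rose and 12.4% fell at 6 h, 1.81% and 0.277% at 24 h, and 27.4% and 19.8% at 72 h. No list was tested as a set. Of 23 elongation and pausing factors 3 rose and 7 fell at 6 h, 0 passed at 24 h, and 6 rose and 3 fell at 72 h. Hexim1, the inhibitor of P-TEFb, fell by 0.55 ± 0.07 at 6 h (adjusted p = 0.000163), and Tcea3, a relative of Tcea1, rose by 0.80 at 6 h (adjusted p = 4e-04) and fell by 0.92 at 72 h (adjusted p = 5.56e-06). Of 14 other kinases, cyclins and phosphatases of the polymerase tail 3 rose and 3 fell at 6 h, with Cdk12, a kinase of the elongating polymerase, at -1.05 ± 0.20 (adjusted p = 0.00169), and 3 rose and 5 fell at 72 h, with Cdk19, a Mediator kinase, at -0.60 (adjusted p = 3.1e-05).

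Of 11 TFIIH helicases and factors of the stalled polymerase 0 rose and 2 fell at 6 h: Ercc6 (CSB), which binds the stalled polymerase, by 0.46 ± 0.11 (adjusted p = 0.00578), and Ercc8 (CSA) by 0.55 (adjusted p = 0.0174). Ercc8 did not pass without AA 6 h replicate 1 or 3 or DMSO 6 h replicate 2 or 3 (adjusted p 0.0578 to 0.088). At 72 h 2 rose and 1 fell, with Uba1, a ubiquitin-activating enzyme, at 0.83 ± 0.09 (adjusted p = 4.68e-07) and Cul4b, a scaffold of ubiquitin ligases, at -0.64 ± 0.09 (adjusted p = 5.91e-06). Of 16 cleavage and termination factors 2 rose and 2 fell at 6 h and 6 rose and 1 fell at 72 h. Of 17 subunits of RNA polymerases I and III 2 rose and 2 fell at 6 h and 2 rose and 3 fell at 72 h, with Polr3b, the second largest subunit of polymerase III, at -1.23 ± 0.21 (adjusted p = 0.000104). Of 12 Integrator subunits 3 rose and 1 fell at 6 h and 2 rose and 1 fell at 72 h, with Ints2 at 0.86 ± 0.15 (adjusted p = 9.82e-05). At 24 h 0 genes of these 6 lists passed. In DMSO, 24 h against 6 h, the counts lower and higher were 11 and 3 of the 17 polymerase I and III subunits, 11 and 4 of the 23 elongation factors, 6 and 1 of the 12 Integrator subunits, 4 and 4 of the 14 kinases, cyclins and phosphatases, 4 and 4 of the 11 TFIIH and stalled polymerase factors, and 3 and 4 of the 16 cleavage factors, against 30.5% lower and 28.3% higher of all tested genes.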

How the data were processed

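RNA of NRK-52E cells was read on 18 arrays in 6 groups of 3. The authors deposited a log2 value for every probe set on every array. The submitters' processing notes name GCRMA; its version is not given in the sources used here, nor are its settings. GCRMA puts weak probe sets near a floor of about log2 2, so differences of dim genes are compressed. Precision is limited by the number of arrays; among tested members the median replicate SD was 0.0965.

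Of 31099 probe sets, 20832 had 1 gene symbol in the platform annotation, 436 had several and 9831 none; 57 were controls. Symbols were updated to RefSeq GRCr8 by gene number (20758 matched), which gave 14217 genes. The 9015 genes that reached log2 4 on at least 3 arrays entered 1 limma 3.58.1 fit over all arrays (R 4.3.3; 6 group means, eBayes with trend, 12 residual and 7.27 prior degrees of freedom) with p-values adjusted by Benjamini-Hochberg over all tested genes. Genes to name were picked in each comparison by rule. These were up to 6 largest increases and decreases among called members without overlapping arrays, and a fixed list of members whatever their test. The text does not give all genes so picked, and it gives further called members. A gene left unmentioned in a comparison may thus have passed there. Alternatives were scaling, filters, the trend, the arrays fitted, a replicate block, averaged probe sets and leaving out each array. On simulated data for 72 h with 9015 genes, 67, 67 and 66 genes were changed by log2 0.5, 1 and 2. Of these 61.2%, 98.5% and 100% were recovered, and 5.46% of calls were false. In the data a far larger share of genes, 47.2%, passed at 72 h, so these rates need not hold there. The members, their grouping and the pathway lists were chosen with earlier results of these data known. The promoter motifs were too; after a first search the YY1 motif was shortened to its first 7 letters, which match more windows than the longer form, and an NRF1 motif was left out.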

Additional observations from a re-analysis of the deposited data

Results flagged for a closer look

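The AA effect differed between times, by a test of the difference itself in the same limma fit, for the members that follow; values are changes of the log2 difference between AA and DMSO. From 6 h to 24 h it changed for Taf1d (0.48). From 24 h to 72 h it changed upward for Med12 (1.14), Med13 (0.89), Med15 (0.69), Med25 (0.66), Ccnt2 (0.65), Gtf2h1 (0.64), Polr2h (0.54), Taf6 (0.54), Supt6h (0.51), Taf13 (0.44), Polr2a (0.38), Supt5h (0.31), Gtf2a1 (0.31), Taf9 (0.28) and Polr2b (0.28), and downward for Supt3h (-2.71), Taf3 (-0.73), Med27 (-0.62) and Tbp (-0.34). A second probe set of Gtf2h1 went the other way, with a difference of -0.15 at 24 h and -0.46 at 72 h. Supt5h and Tbp passed by a small margin and lost their calls in 16 and 11 of 20 alternatives, and Polr2b in 6, Med27 in 8, Taf9 in 8 and Gtf2a1 in 10. Those losses came, for Tbp, from leaving out any of the 24 h or 72 h arrays but DMSO 24 h replicate 3, AA 24 h replicate 3 or AA 72 h replicate 3 (adjusted p 0.0597 to 0.0975). Supt5h kept its call without AA 24 h replicate 3, DMSO 24 h replicate 1 or AA 72 h replicate 3, and lost it without each of the other 9 arrays (0.0523 to 0.135). Polr2b lost it without replicate 3 of any of the 4 groups (0.0614 to 0.081), Taf3 without AA 72 h replicate 2 (0.0525), and Med27 without AA 24 h replicate 2 or 3 or replicate 3 of DMSO 24 h, AA 72 h or DMSO 72 h (0.0508 to 0.0709). Taf9 lost it without AA 24 h replicate 2 or 3, DMSO 24 h replicate 2, AA 72 h replicate 1 or 3 or DMSO 72 h replicate 3 (0.0509 to 0.0951), and Gtf2a1 without AA 24 h replicate 1 or 3, DMSO 24 h replicate 1, AA 72 h replicate 3 or DMSO 72 h replicate 1 or 2 (0.0594 to 0.105).

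From 6 h to 72 h, in the comparison added after the values were seen, the effect changed upward for Med22 (1.23), Med13 (1.20), Ccnt2 (1.18), Med12 (1.07), Taf1d (0.75), Taf12 (0.73), Taf13 (0.69), Polr2h (0.69), Taf6l (0.68), Med15 (0.68), Taf6 (0.57), Med4 (0.54), Polr2d (0.49), Gtf2h1 (0.48), Med25 (0.47), Cdk7 (0.47), Med19 (0.46), Taf4 (0.45), Gtf2a1 (0.45), Taf9 (0.40), Polr2b (0.36), Med7 (0.34), Polr2k (0.33) and Ccnh (0.30), and downward for Supt3h (-3.14), Med27 (-0.53), Polr2j (-0.47), Gtf2h3 (-0.46), Med1 (-0.36) and Gtf2a2 (-0.22). The second probe set of Gtf2h1 again went the other way, with a difference of -0.02 at 6 h and -0.46 at 72 h. Med27, Med25, Gtf2a2, Polr2k, Med7 and Ccnh lost their calls in 14, 13, 12, 12, 9 and 8 of 20 alternatives. Leaving out 1 array gave an adjusted p of 0.0627 to 0.137 for Med27 (all but AA 6 h replicate 1, DMSO 6 h replicate 1 and AA 72 h replicate 2), 0.0549 to 0.126 for Gtf2a2 (all but AA 6 h replicate 3, DMSO 6 h replicate 2 and AA 72 h replicate 2) and 0.0564 to 0.0935 for Ccnh (AA 6 h replicate 2 or 3, DMSO 6 h replicate 1 or 3, AA 72 h replicate 3 or DMSO 72 h replicate 2). For Gtf2h3 it was 0.0519 to 0.0963 (DMSO 6 h replicate 2, AA 72 h replicate 1 or 3 or DMSO 72 h replicate 3) and for Med1 0.0502 to 0.0592 (DMSO 6 h replicate 1 or DMSO 72 h replicate 2 or 3). For Med25 it was 0.0559 to 0.104 (all but AA 6 h replicate 2, DMSO 6 h replicate 1 and AA 72 h replicate 1), for Polr2k 0.0595 to 0.125 (all but AA 6 h replicate 1, DMSO 6 h replicate 2, AA 72 h replicate 1 and DMSO 72 h replicate 1) and for Med7 0.0587 to 0.112 (AA 6 h replicate 3, DMSO 6 h replicate 1 or 2, AA 72 h replicate 3 or DMSO 72 h replicate 1 or 3).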

How the results depend on the processing

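The counts of members past the test were recomputed under each alternative. At 6 h, 16 became 5 (0 higher, 5 lower) when the fit held the 6 h arrays alone, which leaves fewer degrees of freedom, and 6 to 18 when 1 array was left out. At 24 h, 1 became 0 with arrays centred on their medians, quantile normalization, no filter, only the arrays of the groups compared or the replicate block, and 0 to 1 without 1 array. For the change from 6 h to 24 h, 1 became 0 with centred arrays, no filter, no intensity trend, only the arrays compared, the replicate block or averaged probe sets, and 0 to 2 without 1 array. The other 5 counts stayed within 1.5 times in all alternatives run: 26 to 35 at 72 h, 14 to 21 for the change from 24 h to 72 h, 23 to 31 for that from 6 h to 72 h, 50 to 58 in DMSO from 6 h to 24 h and 13 to 23 from 24 h to 72 h. With probe sets averaged 5 named genes reversed: Gtf2h5 (0.0067) and Polr2m (-0.1449) at 72 h, and outside the rule Ints6 at 6 h (-0.0854), Clp1 at 72 h (-0.0478) and Cpsf6 in DMSO from 24 h to 72 h (0.1622). Same-numbered arrays showed little shared deviation (correlations -0.156 to 0.155, 1 of 9 pairs over 0.1), and no pairing was used in the main fit. Weak correlations cannot show that the numbers mark no shared plate or day. With the replicate block 13, 0 and 34 members passed at 6, 24 and 72 h; it could not be fitted for the DMSO time comparisons.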

Other observations

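One pattern in the promoter windows was noticed after the values were seen and is given as a description. Of the 11 windows of members lower in AA at 72 h, 7 held the ETS core CCGGAAG (Gtf2a2, Gtf2h3, Med31, Med6, Polr2j, Taf1b and Taf3), and of the 21 windows of members higher in AA at 72 h, 4 did (Med19, Polr2m, Supt6h and Taf13). Across all tested genes the core was in 15.8% of 1745 windows of genes lower in AA at 72 h, 17.5% of 2292 windows of higher genes and 22.3% of 4462 windows of genes not past the test. As given above, Gtf2h3, Med6, Polr2j, Polr2m and Supt6h did not pass at 72 h when some single arrays were left out. With probe sets averaged the fall of Med31 was lost and Polr2m reversed, so the make-up of both sets depends on the processing. The counts are small, a match is not a binding site, and no test was run.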
